A study of Mus musculus with 12 samples.

Results

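The retinoic acid synthesis and receptor genes of mouse bone marrow-derived dendritic cells (BMDCs) were taken by gene symbol, and comprised 10 of the 55335 genes in the expression tables. They were the 3 retinaldehyde dehydrogenase genes Aldh1a1, Aldh1a2 and Aldh1a3, the retinoid oxidoreductase genes Rdh10 and Dhrs3, the retinoic acid hydroxylase gene Cyp26b1, and the receptor genes Rara, Rarg, Rxra and Rxrb. Of these, 9 passed the filter on low counts that left 14008 genes to test, and Aldh1a1 did not. The libraries came from C57BL/6 bone marrow cultured for 6 days with GM-CSF, the cytokine that drives precursors towards a dendritic cell state. All mice carried CreER, a tamoxifen-activated recombinase expressed from the Rosa26 locus, and the genotypes compared were CreER (WT) and CreER;CTCF fl/fl (KO), in which the Ctcf alleles are flanked by loxP sites. The mice were adult littermates of both sexes, matched for age and sex between genotypes, and 4-hydroxytamoxifen was given on the first culture day to delete Ctcf, and CD11c+ cells were kept by bead selection. The sources do not state plainly whether WT cultures also received the drug, so if they did not, the drug and the loss of CTCF cannot be told apart. The 4 groups were WT and KO without stimulation, and WTL and KOL with lipopolysaccharide (LPS) at 100 ng/ml for 3 h, with 3 biological replicates each.

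Retinoic acid is made from vitamin A in a pair of oxidation steps. Retinol dehydrogenases such as RDH10 make retinaldehyde, DHRS3 turns retinaldehyde back into retinol, ALDH1A enzymes oxidise retinaldehyde irreversibly to retinoic acid, and CYP26 enzymes hydroxylate retinoic acid for disposal. Retinoic acid acts through nuclear receptors in which a retinoic acid receptor (RAR) pairs with a retinoid X receptor (RXR), and dendritic cells that express ALDH1A enzymes are known for imprinting gut homing on lymphocytes and for promoting regulatory T cells.

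The 10 genes lie on 10 different chromosomes, so none shares a neighbourhood with another. In the mm10 (GRCm38) assembly Aldh1a2 spans chr9:71215789-71296243 on the plus strand and has 1 annotated transcript of 14 exons, while the other members have between 2 transcripts (Rdh10) and 10 transcripts (Rxrb). The opposite-strand pseudogene Gm48124, which overlaps Aldh1a2, held at most 3 counts in any library. RefSeq promoter sequences were given for 8 of the 10 genes, all except Aldh1a3 and Rdh10. The bases before the annotated start are shown for the 3 genes whose levels moved most among those with a promoter sequence, with matches to a GC box, a CCAAT box or a TATA box on either strand in capitals. They cover 250 bases for Aldh1a2 (chr9:71215539-71215788, plus strand), 152 bases for Cyp26b1 (chr6:84593909-84594060, minus strand, cut where another annotated transcript of the gene begins) and 250 bases for Dhrs3 (chr4:144892577-144892826, plus strand, the most upstream of its 3 starts), in GRCm38.p6.
Aldh1a2: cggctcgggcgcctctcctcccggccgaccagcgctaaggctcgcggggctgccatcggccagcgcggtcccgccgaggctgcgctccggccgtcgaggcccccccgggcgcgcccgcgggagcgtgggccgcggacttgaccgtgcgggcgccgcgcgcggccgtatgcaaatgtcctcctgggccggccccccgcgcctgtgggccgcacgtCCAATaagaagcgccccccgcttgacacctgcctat
Cyp26b1: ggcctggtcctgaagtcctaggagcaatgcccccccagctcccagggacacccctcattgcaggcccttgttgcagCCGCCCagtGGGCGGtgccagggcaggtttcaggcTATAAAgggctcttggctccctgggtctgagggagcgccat
Dhrs3: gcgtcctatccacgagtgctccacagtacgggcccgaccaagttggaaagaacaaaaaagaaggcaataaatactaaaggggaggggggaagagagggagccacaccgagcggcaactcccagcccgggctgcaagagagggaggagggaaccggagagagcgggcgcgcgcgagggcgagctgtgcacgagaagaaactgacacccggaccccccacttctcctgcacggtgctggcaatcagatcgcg
The Aldh1a2 stretch was the richest in G and C of the 3, at 77.6%, against 65.1% for Cyp26b1, 61.6% for Dhrs3 and 53.2% over all promoters of the table. It held 1 CCAAT match, the Cyp26b1 stretch held 2 GC boxes, 1 on each strand, and 1 TATA match, and the Dhrs3 stretch held none of the 3 motifs. Over 32851 promoter windows, a GC box (GGGCGG) was present in 32.7% of 250-base windows, CCAAT in 33.8% and a TATA box, spelled TATAAA, in 12.4%, so these matches are common and are given as a description. The core of the CTCF motif, CCANNAGNNGGC, was present in 2.07% of windows and in no window of the 8 genes. Paired retinoic acid half-sites spaced by 5 bases (NGNTCANNNNNNGNTCA, 0.776% of windows) or by 2 bases (NGNTCANNNGNTCA, 0.886%) were also not found in those windows, which says only that these letters are not there.

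Library totals ranged from 12769773 to 16586334 expected counts. Replicates of the LPS-stimulated groups stood farther apart than the others, with a chi-square per degree of freedom between pairs of libraries of 28.3 to 77.7 in WTL and 8.07 to 28.5 in KOL, against 3.14 to 4.45 in WT and 1.66 to 1.86 in KO, and the largest values in WTL and KOL were those of pairs with replicate 2. Ctcf, the deleted gene, was at 975 to 1051 normalised counts in WT, 745 to 886 in WTL, 516 to 570 in KO and 526 to 563 in KOL, so it was lower in every CTCF-deficient library than in every WT library, with transcripts still counted. A normalised count is the expected count of a gene divided by its library size after TMM scaling, and TPM, RSEM's transcript abundance per library, also divides by transcript length. All 8 dendritic cell markers were present, Cd74, H2-Ab1 and Itgax among them. By edgeR, 1 of the 8 was higher and 3 lower in KO than in WT, beside 22.2% and 22.4% of all tested genes. Itgax went from 12109 to 12709 in WT up to 21952 to 22158 in KO. H2-Ab1 went from 15190 to 16655 in WT down to 9020 to 9454 in KO. The summed level of 7 neutrophil and precursor markers was 1120 to 1247 in WT, 1668 to 1980 in WTL, 580 to 665 in KO and 1181 to 1404 in KOL. That of 8 stromal, endothelial and mesothelial markers was 64.3 to 74.6 in WT, 208 to 378 in WTL, 249 to 275 in KO and 177 to 300 in KOL, with Wt1 at or under 3 counts throughout. In KO against WT, 1 of the 4 tested was higher and 1 lower by edgeR, beside 22.2% and 22.4% of all tested genes. Pdgfrb went from 24.8 to 31 in WT up to 236 to 261 in KO, and Pecam1 from 28.5 to 30.3 down to 4.63 to 10.6. The sum over 8 macrophage markers was 25891 to 27691 in WT and 34591 to 36012 in KO, and 16887 to 21850 in WTL and 14639 to 18752 in KOL. From WT to KO, 2 of these macrophage markers were higher and 3 lower by edgeR, and Csf1r, the receptor gene with the largest level of the 8 in both groups, went from 13491 to 14631 up to 23258 to 24103 while Adgre1, the F4/80 gene, went from 1648 to 1767 down to 946 to 1005. Mast cell, basophil and eosinophil markers (8 genes) summed to 394 to 444 in WT, 283 to 321 in WTL, 547 to 572 in KO and 398 to 541 in KOL, with Fcer1a and Epx at or under the floor of 3 counts. Of the 3 tested in this set, 1 was higher and 1 lower in KO than in WT by edgeR. Siglecf went from 231 to 273 in WT up to 478 to 531 in KO, and Kit from 145 to 164 down to 39.8 to 61.9. The 6 lymphocyte markers summed to at most 33.3. The part of any of these cell types in the results on the retinoid genes was not tested.

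**Figure D1:**
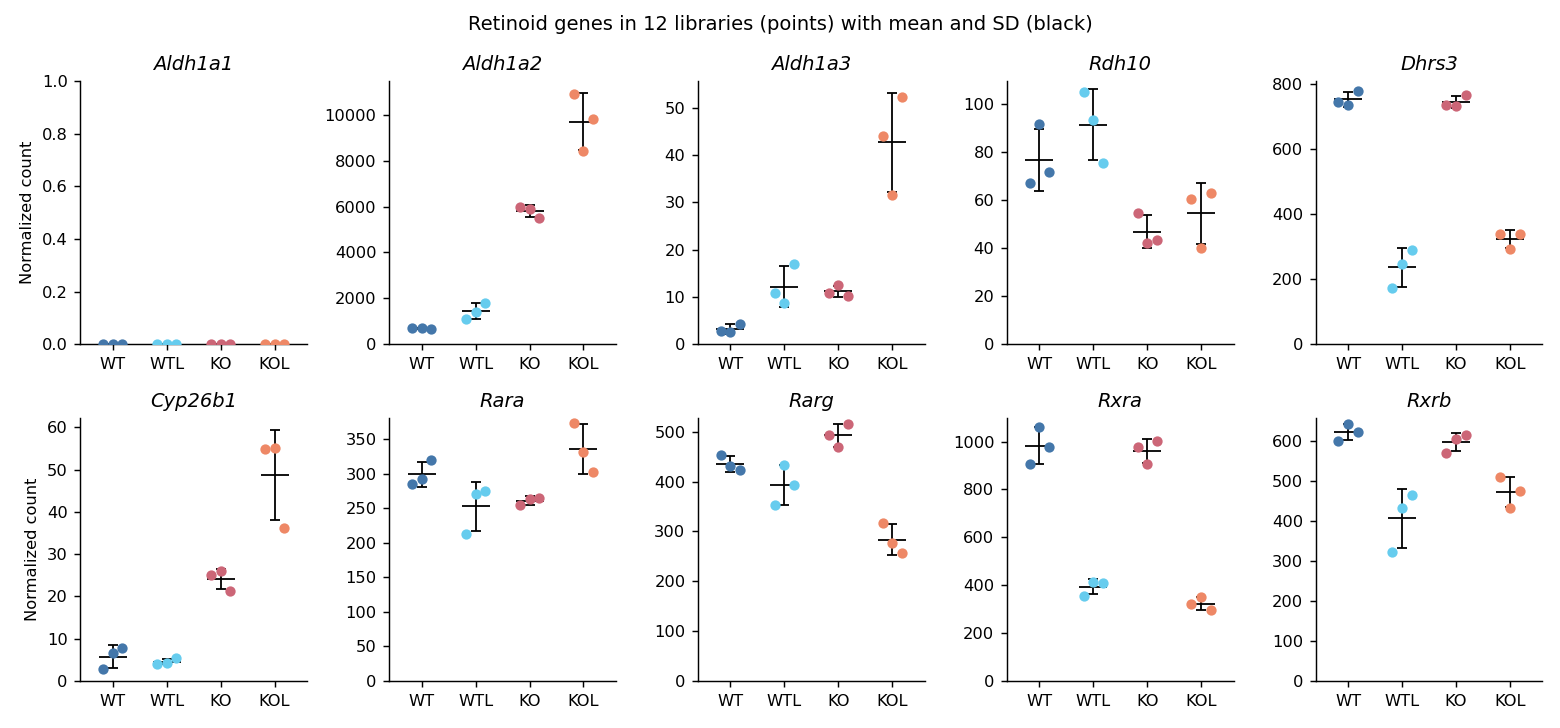
Normalised counts (linear axes from 0, each gene on its own scale) of the 10 genes in the 12 libraries, by group; points are libraries, black bars the mean and SD of 3 replicates. Aldh1a2 climbs from 681 to 702 in WT up to 8400 to 10903 in KOL, Dhrs3 and Rxra drop with LPS in both genotypes, and Aldh1a1 is at 0 throughout.

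Among the synthesis enzymes, nearly all of the ALDH1A message came from Aldh1a2. Aldh1a1 had 0 counts in all 12 libraries, which allows at most 0.181 to 0.235 CPM (counts scaled to library size), depending on the library, taking 3 counts as the limit (counting error only). Per transcript length, Aldh1a2 made up 98.7% to 99.8% of the summed ALDH1A TPM in every library. Aldh1a2 stood at 702, 699 and 681 normalised counts in WT, at 1107, 1383 and 1809 in WTL, at 5992, 5904 and 5503 in KO, and at 10903, 8400 and 9798 in KOL. No 2 groups overlapped, and the lowest unstimulated CTCF-deficient library lay above the highest LPS-stimulated WT library. Aldh1a2 was 8.35-fold higher in KO than in WT (log2 fold change 3.06 ± 0.15 SE, adjusted p = 7.9e-10, the quasi-likelihood test of edgeR, Benjamini-Hochberg adjusted over 14008 genes, n = 3 per group). In bulk RNA, a change in the share of expressing cells and a change in RNA per cell cannot be told apart.

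The same gene was 6.76-fold higher in KOL than in WTL (2.76 ± 0.14). LPS raised it 2.07-fold in WT (1.05 ± 0.14, adjusted p = 1.7e-05) and 1.67-fold in KO (0.74 ± 0.13, adjusted p = 2.2e-04), both by the edgeR test, and the gap between these LPS responses was -0.31 ± 0.19 with an adjusted p of 0.31. In TPM without further scaling, the median of all genes shifted by -0.44 with LPS in WT and by -0.38 in KO on the log2(TPM + 1) scale, and there the Aldh1a2 rise from WT to WTL was 0.48 (adjusted p = 0.018) and that from KO to KOL was 0.28 with an adjusted p of 0.14 in limma, so the call in KO was lost although the gene moved above the shifted median. With TPM scaled to a common median, an alternative chosen after the data were seen, the rise was 0.94 from WT to WTL and 0.70 from KO to KOL (adjusted p = 3.3e-04 and 0.002, limma). Ranked by mean TPM within each group, Aldh1a2 went from position 3535 of all genes in WT to 2299 in WTL, 466 in KO and 435 in KOL, with mean TPM of 32.6, 46.8, 255 and 312.

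Aldh1a3, another retinaldehyde dehydrogenase, was scarce. It had 3, 3 and 5 expected counts in the WT libraries, 8, 8 and 16 in WTL, 12, 13 and 11 in KO, and 41, 27 and 49 in KOL. On the normalised scale this was 3.2 ± 0.981 (SD, n = 3) in WT and 42.7 ± 10.4 in KOL. The rise passed the edgeR test in each comparison, by 1.76 ± 0.43 log2 units from WT to KO (adjusted p = 0.0036), by 1.79 ± 0.30 from WTL to KOL, by 1.90 ± 0.44 with LPS in WT and by 1.93 ± 0.29 with LPS in KO. On the log2(TPM + 1) scale, which understates changes of low genes, the 4 rises were between 0.48 and 0.78 and all passed in limma with TPM scaled to a common median. In TPM the gene reached 1.93 at most, so it added little to the ALDH1A total.

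The enzymes on either side of retinaldehyde behaved differently. Rdh10, which supplies retinaldehyde from retinol, had 67.1, 91.4 and 71.7 normalised counts in WT, 105, 93.2 and 75.5 in WTL, 54.7, 42.2 and 43.5 in KO, and 60.2, 39.8 and 63.0 in KOL. Each CTCF-deficient group lay below its WT counterpart without overlap. The fall was -0.71 ± 0.20 from WT to KO (adjusted p = 0.011) and -0.73 ± 0.21 from WTL to KOL (adjusted p = 0.0094, edgeR), and the calls were lost in limma on TPM scaled to a common median (-0.43, adjusted p = 0.08, and -0.39, adjusted p = 0.11). With LPS the values were 0.24 ± 0.19 in WT and 0.22 ± 0.22 in KO, neither past the threshold, and their sign turned in unscaled TPM.

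Dhrs3, the reductase that returns retinaldehyde to retinol, fell with LPS. It was at 744, 734 and 778 normalised counts in WT and at 735, 731 and 764 in KO, and these unstimulated groups overlapped (-0.02 ± 0.11 from WT to KO). With LPS it was at 173, 245 and 289 in WTL and at 339, 291 and 337 in KOL. The fall was -1.66 ± 0.13 in WT (adjusted p = 4.3e-08) and -1.20 ± 0.12 in KO (adjusted p = 7.9e-07, edgeR), and KOL was above WTL by 0.44 ± 0.13 (adjusted p = 0.015). That last call was lost in a fit of the 6 stimulated libraries alone (0.48, adjusted p = 0.062, edgeR) and in limma on unscaled TPM (0.31, adjusted p = 0.073), and its value dropped to 0.27 without WTL replicate 1, which had the lowest count. The difference between the LPS responses was 0.46 ± 0.18 and missed the threshold (adjusted p = 0.091, edgeR). It passed without WTL replicate 3 (0.63, adjusted p = 0.013) or KOL replicate 2 (0.52, adjusted p = 0.036), and with no filter on low counts, all by edgeR. Direction and side of the threshold were kept in 17 of 20 alternatives.

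Taken as a ratio of TPM within a library, which no scaling between libraries can alter, Aldh1a2 over Dhrs3 was 0.582 to 0.664 in WT, 3.26 to 3.76 in WTL, 5.06 to 5.75 in KO and 18.2 to 18.6 in KOL. The groups were ordered without overlap. In WT, Dhrs3 was the most abundant member at 51.6 TPM on average, followed by Rxrb at 35.5 and Aldh1a2 at 32.6, whose ranges overlapped. In WTL, KO and KOL, Aldh1a2 was first with no overlap with the next gene.

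**Figure D2:**
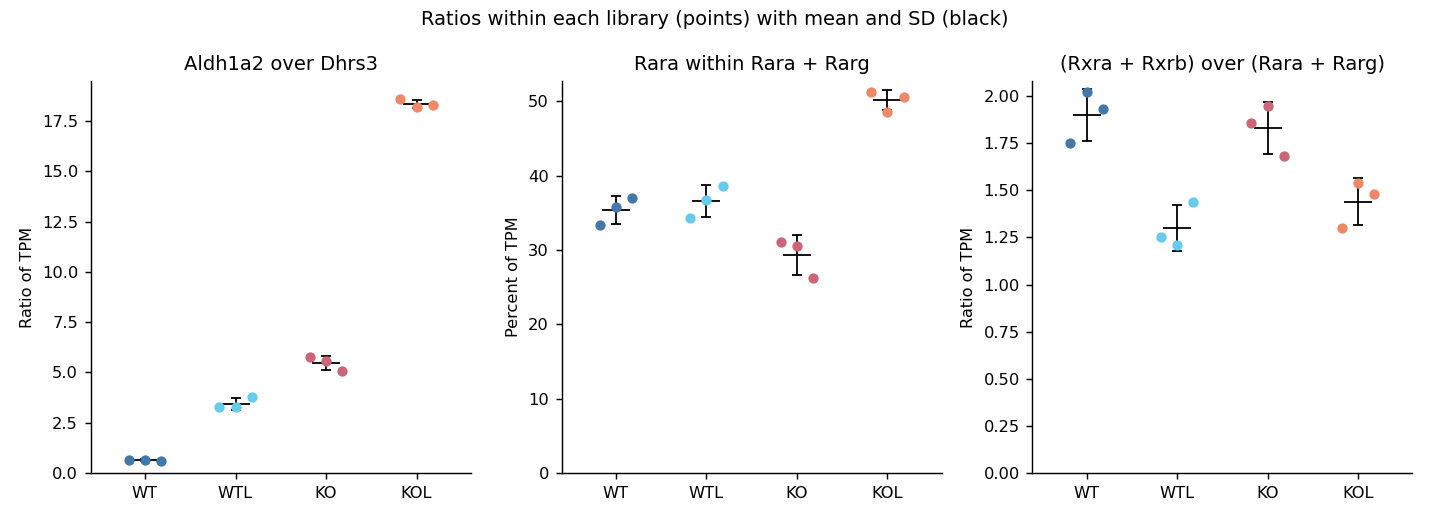
Ratios formed within each of the 12 libraries from TPM (axes from 0; points are libraries, black bars mean and SD of 3 replicates). Aldh1a2 over Dhrs3 is lowest in WT and reaches 18.2 to 18.6 in KOL, the share of Rara in Rara plus Rarg is highest in KOL at 48.6% to 51.2%, and the ratio of RXR to RAR message is lower in both LPS-stimulated groups than in both unstimulated ones.

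Cyp26b1, which clears retinoic acid, was present at low counts and rose without CTCF. The expected counts were 3, 8 and 9 in WT, 3, 4 and 5 in WTL, 28, 27 and 23 in KO, and 51, 47 and 34 in KOL. WT and WTL overlapped, and both lay below KO, which lay below KOL. The rise was 4.09-fold from WT to KO (2.03 ± 0.34, adjusted p = 1.8e-04) and 10.3-fold from WTL to KOL (3.37 ± 0.35, adjusted p = 2.4e-06), by edgeR. With LPS the value was -0.33 ± 0.48 in WT and did not pass (adjusted p = 0.59), and LPS raised it by 1.01 ± 0.26 in KO (adjusted p = 0.003, edgeR). The difference between these responses was 1.34 ± 0.54 with an adjusted p of 0.1, and it reached 1.72 with an adjusted p of 0.034 (edgeR) when WT replicate 1 was left out. The other CYP26 genes, Cyp26a1 and Cyp26c1, did not pass the filter, with at most 7 and 3 counts in any library.

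Both RXR genes fell with LPS. Rxra, which encodes an RXR partner, had 906, 1061 and 979 normalised counts in WT and 978, 904 and 1001 in KO, and dropped to 356, 414 and 410 in WTL and 320, 351 and 297 in KOL. The fall with LPS was -1.32 ± 0.09 in WT (adjusted p = 1.1e-08) and -1.58 ± 0.09 in KO (adjusted p = 1.5e-09, edgeR). KOL was below WTL by a small amount (-0.29 ± 0.09, adjusted p = 0.022, edgeR). That call was lost without any one of 4 libraries, namely WTL replicate 2 (-0.25), WTL replicate 3 (-0.26), KOL replicate 1 (-0.28) and KOL replicate 3 (-0.23), and in a fit of these 6 libraries alone (-0.26, adjusted p = 0.11). On the log2(TPM + 1) scale the call was also lost, unscaled (-0.25, adjusted p = 0.058) and scaled to a common median (-0.22, adjusted p = 0.087, limma). On log2(TPM + 0.1) it passed (-0.29, adjusted p = 0.046, limma).

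Rxrb, the other RXR gene tested, had 602, 643 and 624 normalised counts in WT, 324, 434 and 465 in WTL, 572, 606 and 616 in KO, and 510, 433 and 477 in KOL. It fell with LPS by -0.61 ± 0.11 in WT (adjusted p = 2.2e-04) and by -0.34 ± 0.11 in KO (adjusted p = 0.012, edgeR). In unscaled TPM these falls were -1.09 and -0.87, before the shift of the median gene is taken off. Between genotypes the values were -0.06 ± 0.10 without LPS and 0.21 ± 0.11 with LPS, both short of the threshold, and the latter passed without WTL replicate 3 (0.31, adjusted p = 0.039, edgeR) and was 0.08 without WTL replicate 1 (adjusted p = 0.5). Summed over Rxra and Rxrb, RXR message was 1.75 to 2.02 times RAR message in WT and 1.68 to 1.95 times in KO, against 1.21 to 1.44 times in WTL and 1.3 to 1.54 times in KOL, all in TPM.

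Rara and Rarg, which encode RARα and RARγ, were the 2 of 9 tested members whose LPS response differed between genotypes by edgeR, beside 17.4% of all tested genes. Rarg had 453, 431 and 423 normalised counts in WT, 353, 434 and 393 in WTL, 493, 470 and 515 in KO, and 317, 276 and 256 in KOL. WT and WTL overlapped, and every KOL library was below all 9 others. The LPS response of Rarg was -0.14 ± 0.09 in WT and did not pass (adjusted p = 0.19), and it was -0.80 ± 0.09 in KO (adjusted p = 3.2e-06), a difference of -0.66 ± 0.13 (adjusted p = 0.0033, edgeR). In unscaled TPM the WT fall also passed (-0.78, adjusted p = 9.3e-05, limma), with the median of all genes at -0.44 there, and the difference was -0.48 (adjusted p = 0.075, limma). With TPM scaled to a common median the WT fall was -0.34 and passed as well (adjusted p = 0.026, limma).

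Rara had 285, 293 and 320 normalised counts in WT, 212, 271 and 275 in WTL, 254, 264 and 265 in KO, and 373, 332 and 302 in KOL. All KOL libraries were above all WTL and KO libraries, and the highest WT library was above the lowest KOL one. The LPS response of Rara was -0.24 ± 0.11 in WT and did not pass (adjusted p = 0.067), and it was 0.36 ± 0.10 in KO (adjusted p = 0.0069), a difference of 0.60 ± 0.15 (adjusted p = 0.013, edgeR). The rise in KO turned to -0.08 in unscaled TPM (adjusted p = 0.59, limma), where the median gene was at -0.38, and it was 0.30 with TPM scaled to a common median (adjusted p = 0.053), where the difference was 0.56 (adjusted p = 0.06, limma). The WT value passed without WT replicate 1 (-0.35, adjusted p = 0.025), WT replicate 2 (-0.33, adjusted p = 0.037) or WTL replicate 3 (-0.30, adjusted p = 0.043), and was -0.13 without WTL replicate 1 (adjusted p = 0.25), all by edgeR. The median of all tested genes was -0.10 without WT replicate 1 and -0.09 without WT replicate 2, beside -0.02 with all libraries. Without WTL replicate 3 this median was -0.03. In unscaled TPM the WT value of Rara was -0.68 and passed (adjusted p = 4.3e-04, limma).

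Between genotypes with LPS, KOL was above WTL for Rara (0.40 ± 0.11, adjusted p = 0.0069) and below it for Rarg (-0.48 ± 0.10, adjusted p = 9.4e-04, edgeR), while without LPS the values were -0.20 ± 0.10 and 0.18 ± 0.09 and missed the threshold in the fit of all libraries. In a fit of the 6 unstimulated libraries alone both passed (adjusted p = 0.021 and 0.011, edgeR). Within the RAR message in TPM, Rara was 33.3% to 37.0% in WT, 34.3% to 38.6% in WTL, 26.2% to 31.1% in KO and 48.6% to 51.2% in KOL. The third RAR gene, Rarb, and the third RXR gene, Rxrg, did not pass the filter, and Rxrg had 0 counts in all 12 libraries.

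**Figure D3:**
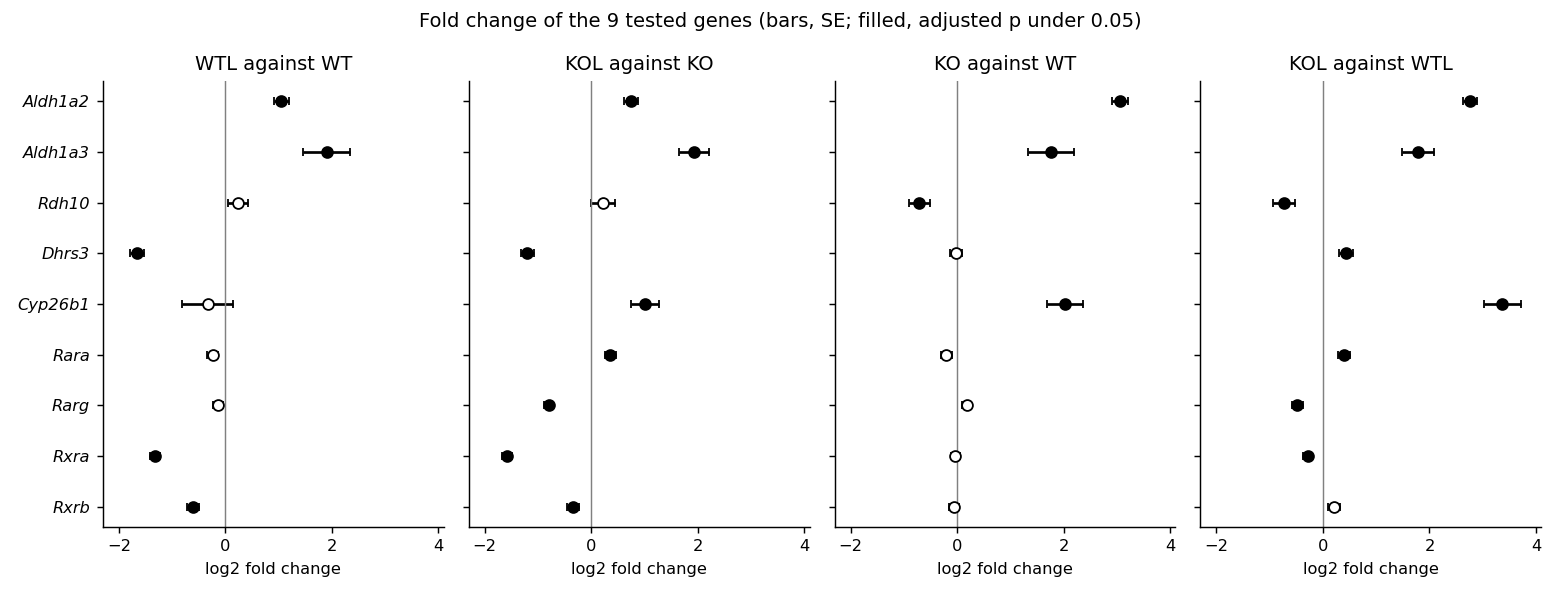
Log2 fold change (horizontal axes) of the 9 tested genes in 4 comparisons, with SE; filled points passed an adjusted p of 0.05 in edgeR. Aldh1a2, Aldh1a3 and Cyp26b1 lie to the right in both comparisons of genotypes, and Dhrs3, Rxra and Rxrb to the left in both comparisons of LPS.

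The counts of members that passed are set here against the share of all tested genes. From WT to WTL, 5 of the 9 tested members passed (2 higher and 3 lower), against 60.2% of 14008 genes (30.0% higher and 30.2% lower). From KO to KOL, 8 passed (4 higher and 4 lower), against 67.5% of genes (33.6% higher and 33.9% lower). From WT to KO, 4 passed (3 higher and 1 lower), against 44.6% of genes (22.2% higher and 22.4% lower). From WTL to KOL, 8 passed (5 higher and 3 lower), against 44.7% of genes (21.4% higher and 23.3% lower). In the difference between LPS responses, 2 passed (1 higher and 1 lower), against 17.4% of genes (8.70% higher and 8.75% lower). Without a fold cutoff, the share of members was close to the background from WT to WTL, from WT to KO and in the difference between LPS responses. It was above the background from WTL to KOL and from KO to KOL, with no test run on 9 genes. With the fold cutoffs of the study added (2 for either LPS comparison, 1.3 between the unstimulated and 1.5 between the stimulated genotypes), 4 members passed in each of the 4 pairwise comparisons, against 22.6% of genes from WT to WTL, 34.5% from WT to KO, 25.0% from WTL to KOL and 28.1% from KO to KOL. The comparisons share groups, so these counts are not independent of each other.

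RSEM also gives each gene an abundance-weighted mean transcript length, which moves with the estimated mixture of isoforms. For Dhrs3 it was 1577 to 1646 bases in WT and 1629 to 1665 in KO, and 1272 to 1453 in WTL and 1405 to 1517 in KOL. The LPS-stimulated libraries were all below the unstimulated ones, so the estimated mixture of the 7 annotated Dhrs3 transcripts, from 686 to 2337 bases long, was shorter when the gene was low. For Rarg it went the other way in WT, from 2369 to 2447 bases up to 2588 to 2724 in WTL, while KO (2205 to 2617) and KOL (2483 to 2637) overlapped. Aldh1a2 has 1 transcript, so its length was 2264 in every library. No test was run on these lengths, which are estimates with no counts of their own.

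**Figure D4:**
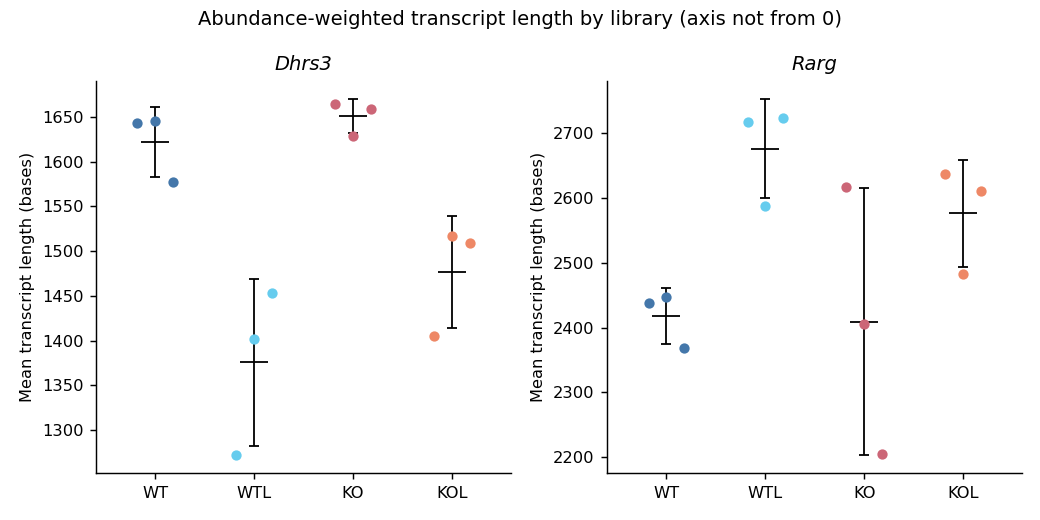
Abundance-weighted mean transcript length in bases (vertical axes not from 0) of Dhrs3 and Rarg by library; points are libraries, black bars mean and SD of 3 replicates. Dhrs3 is shorter in all 6 LPS-stimulated libraries, and Rarg is longer in WTL than in WT.

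CTCF marks many boundaries between chromatin domains, and the tested genes nearest to each member are described here. The cause of any change in these genes or in the members was not tested. Of the 3 nearest tested genes on each side of Aldh1a2, 5 of 6 were higher in KO than in WT by the edgeR test, beside 22.2% of all tested genes. The long noncoding gene model Gm32511, 7.67 kb upstream, rose by 2.20 ± 0.53 from a mean of 5.43 to 25.7 normalised counts (adjusted p = 0.0033). Aqp9, an aquaglyceroporin gene 47.1 kb upstream, rose by 0.68 ± 0.14 from 160 to 256 (adjusted p = 9.9e-04), and by 0.71 ± 0.14 from WTL to KOL. Farther out, Adam10 (436 kb upstream) rose by 0.23 ± 0.09, close to the threshold (adjusted p = 0.047, edgeR). Polr2m (182 kb downstream) rose by 0.29 ± 0.08 and Cgnl1 (330 kb downstream) by 0.29 ± 0.07. Myzap, 208 kb downstream, was at 7.85 in WT and 12 in KO. Its value of 0.61 ± 0.37 was near that of Aqp9 and did not pass (adjusted p = 0.19, edgeR). From WTL to KOL, 3 of the 6 were higher and 1, Adam10, was lower (-0.32 ± 0.09), beside 21.4% and 23.3% of all tested genes. The 3 were Aqp9, Cgnl1 (0.58 ± 0.08) and Gm32511 (1.84 ± 0.70, adjusted p = 0.043, edgeR). Gm32511 had a mean of 3.4 normalised counts in WTL and 12.9 in KOL, where its SD over 3 replicates was 12.1. With LPS, 2 of the 6 fell in WT and 3 fell in KO, beside 30.2% and 33.9% of all tested genes. Aldh1a2 itself rose with LPS in both genotypes.

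Around the other 9 members, the nearest tested gene on each side gave 18 neighbours, of which 3 were higher and 6 lower in KO than in WT, beside 22.2% and 22.4% of all genes. Lower were Anxa1 (-0.53 ± 0.11) next to Aldh1a1, Lrrk1 (-0.25 ± 0.08) next to Aldh1a3 and Rpl7 (-0.36 ± 0.09) next to Rdh10. Also lower were Cdc6 (-0.63 ± 0.15) and Top2a (-0.38 ± 0.12) on either side of Rara, and Col5a1 (-0.58 ± 0.22) next to Rxra. Vps13d, 44.4 kb downstream of Dhrs3, was higher by 0.99 ± 0.17 (adjusted p = 3.2e-04, edgeR) where Dhrs3 itself was at -0.02. Exoc6b, 24.6 kb upstream of Cyp26b1, was higher by 0.37 ± 0.12 against 2.03 for Cyp26b1. Itgb7, 2.99 kb downstream of Rarg and the gene of the β7 integrin of gut-homing lymphocytes, was higher by 0.42 ± 0.08 in KO and lower by -0.25 ± 0.09 in KOL than in WTL, and its LPS response differed between genotypes by -0.67 ± 0.12 (adjusted p = 0.0016, edgeR) beside -0.66 for Rarg. Col11a2, 1.04 kb downstream of Rxrb, rose with LPS by 1.25 ± 0.14 in WT and 2.19 ± 0.13 in KO, opposite to Rxrb.

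**Figure D5:**
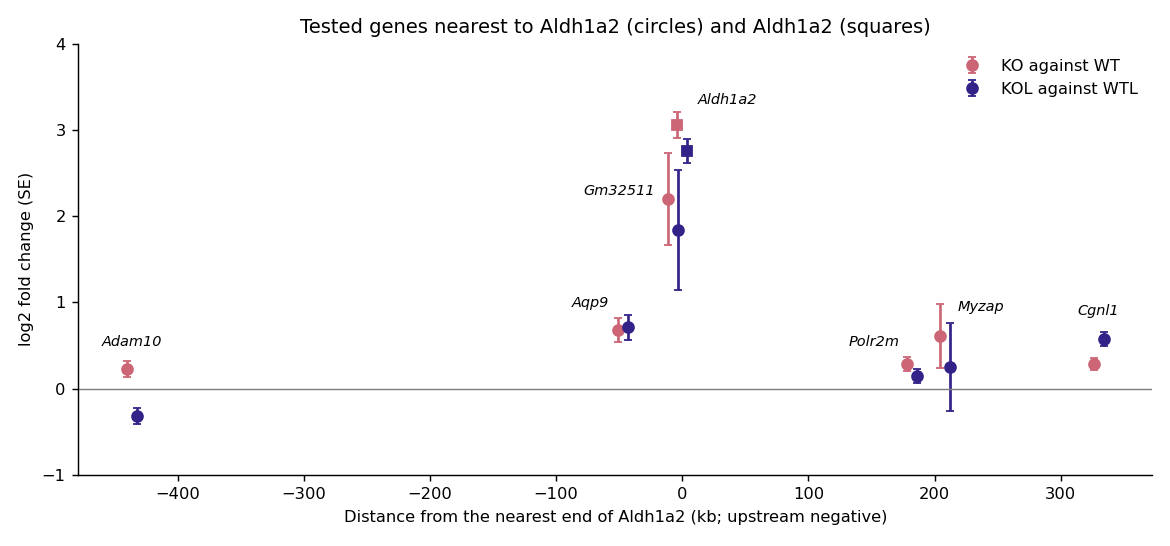
Log2 fold change with SE (vertical axis) of the 3 tested genes nearest to Aldh1a2 on each side, against distance from the nearest end of Aldh1a2 in kb (horizontal axis, upstream negative, the pairs of points shifted slightly apart); squares mark Aldh1a2. Gm32511 and Aqp9, the nearest upstream genes, lie highest among the neighbours, and Adam10 changes side between the comparisons.

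The genes whose log2(CPM + 1) followed Aldh1a2 most closely over the 12 libraries, among 9338 genes with a mean of at least 100 normalised counts, were Cavin1 (r = 0.994), Ly86 (0.992), Ssr2 (0.992), Med11 (0.990) and Rps3a2 (0.990). The 12 libraries fall into 4 groups and the values share each library's depth, so this is a description with no test. Cavin1, which encodes a coat protein of caveolae, had group means of 40.5, 173, 1533 and 3349 normalised counts in WT, WTL, KO and KOL, so it spanned a wider range in fold than Aldh1a2. Ly86, which encodes a secreted partner of a Toll-like receptor relative, had 835, 1069, 2078 and 2440. Rps3a2 is a near copy of a ribosomal protein gene, and its counts are uncertain where reads can be split between copies.

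A list of other retinoid genes, uptake and binding proteins, other oxidoreductases, cofactors, RXR partners and known targets, held 70 genes in the tables, of which 38 were tested. From WT to KO, 8 were higher and 13 lower, beside 22.2% and 22.4% of all tested genes, with a median of -0.10 log2 units beside -0.01 over all genes, and from WTL to KOL, 9 were higher and 15 lower, beside 21.4% and 23.3% of all genes (median -0.11 beside -0.03). With LPS, 7 were higher and 9 lower in WT, beside 30.0% and 30.2% of all genes (median -0.04 beside -0.02), and 16 were higher and 11 lower in KO, beside 33.6% and 33.9% (median 0.16 beside -0.02). The LPS response differed between genotypes for 14 of the 38, of which 11 had a higher response in KO, beside 17.4% of all genes that differed and 8.70% that were higher.

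Of 8 known retinoic acid targets listed, 4 were tested, and in KO against WT 1 was higher and 3 were lower, beside 22.2% and 22.4% of all tested genes. Tgm2, a transglutaminase gene, had 1271, 1472 and 1418 normalised counts in WT, 3380, 3060 and 2736 in WTL, 249, 228 and 243 in KO, and 1393, 1761 and 1449 in KOL. It was lower in KO than in WT by -2.53 ± 0.11 (adjusted p = 3.5e-10), lower in KOL than in WTL by -1.0 ± 0.10, and its LPS response was larger in KO by 1.54 ± 0.15 (adjusted p = 1.3e-05, edgeR). Cd38, an ectoenzyme gene, was at 397 to 504 in WT, 2454 to 3226 in WTL, 253 to 270 in KO and 1516 to 1726 in KOL. It rose with LPS by 2.62 ± 0.11 in WT and 2.61 ± 0.12 in KO, a difference of -0.01 ± 0.16, and was lower without CTCF by -0.79 ± 0.12 without LPS and -0.80 ± 0.11 with it. Hic1, a transcriptional repressor gene, was the target that rose, from 7.78 to 16.8 in WT to 150 to 201 in KO (3.8 ± 0.23) and from 1.35 to 5.42 in WTL to 68.8 to 77.9 in KOL (4.09 ± 0.34).

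Among oxidoreductases of the list, Dhrs4, a retinal reductase gene, had 224 to 245 normalised counts in WT and 236 to 243 in WTL, against 14.8 to 21.5 in KO and 38.4 to 49.1 in KOL. This was the largest fall of the list between genotypes without LPS (-3.71, adjusted p = 9.1e-11) and with LPS (-2.52, adjusted p = 2.2e-09, edgeR). Rdh13, an oxidoreductase gene of the same family, rose from 201 to 224 in WT up to 416 to 445 in KO (0.99) and from 168 to 196 in WTL up to 495 to 644 in KOL (1.60). Cyp1b1, a cytochrome P450 gene able to oxidise retinol and retinaldehyde, went from 24.2 to 34.0 in WT and 14.9 to 18.9 in WTL up to 73.6 to 92.2 in KO and 144 to 149 in KOL, and its LPS response differed between genotypes by 1.71 (adjusted p = 4.5e-04, edgeR). Rdh11 had the opposite kind of difference in LPS response (-0.48, adjusted p = 0.044, edgeR), and Dgat1, an acyltransferase gene able to esterify retinol, had a positive one (1.28, adjusted p = 0.0055).

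Among uptake genes, Stra6l, a receptor gene for retinol-binding protein, was at 463 to 509 in WT and 435 to 445 in KO, and dropped to 80.9 to 101 in WTL and 45.9 to 71.4 in KOL (-2.42 and -2.83 with LPS). Scarb1, a scavenger receptor gene that takes up carotenoids, fell more with LPS in KO (-1.57) than in WT, a difference of -0.73 (adjusted p = 7.5e-04, edgeR). Rbp4, the gene of serum retinol-binding protein, lies outside the naming rule and was chosen after its values were seen. It was at 0 to 2.76 normalised counts in WT and 0 to 2.17 in WTL, against 38.9 to 50.2 in KO and 67.9 to 89.3 in KOL.

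Of the receptors that pair with RXR, 8 of 11 listed were tested, and 2 were higher and 5 lower in KO than in WT, beside 22.2% and 22.4% of all tested genes. Pparg, the lipid-sensing receptor gene, was at 195 to 206 in WT and 84.0 to 143 in WTL, and lower at 63.0 to 85.5 in KO and 21.5 to 38.6 in KOL (-1.44 ± 0.19 and -1.96 ± 0.24 between genotypes). Nr4a2 rose with LPS by 0.96 ± 0.15 in WT and by 1.93 in KO. Of the 10 coactivators and corepressors, all tested, 2 were higher in KO than in WT and 8 did not pass. Over all tested genes, 22.2% were higher and 44.6% passed in either direction. Ncoa1, a coactivator gene, fell with LPS by -1.54 in KO (adjusted p = 4.0e-07, edgeR), with a difference between LPS responses of -0.63 (adjusted p = 0.047).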

How the data were processed

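RNA from 12 BMDC libraries was sequenced by the authors, whose processing notes name STAR 2.5.1, RSEM and the mm10 build. The labels name rRNA depletion and the paper a poly(A) stranded kit, and the strand setting of RSEM is not given in the sources used here. The deposited tables hold, per gene, the RSEM expected count, TPM and mean transcript lengths, all as deposited; 0 columns belonged to no sample. Groups came from the labels.

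Expected counts were rounded and tested with edgeR 4.0.16 (quasi-likelihood F-test, TMM, filterByExpr by group, 1 mean per group over 12 libraries, R 4.3.3), with Benjamini-Hochberg adjustment over 14008 genes and a threshold of 0.05. Alternatives were DESeq2 1.42.0, its size factors in edgeR, no filter or at least 10 counts in every library, the compared libraries alone, limma 3.58.1 on log2(TPM + 1) or log2(TPM + 0.1) for genes with TPM of at least 1 in 3 libraries, the same with TPM scaled to a common median (added after the data were seen), a replicate block, the fold cutoffs of the study, and leaving out each library. On simulated counts for KO against WT, edgeR called 186 of 199 changed and 9 unchanged genes of 13601 tested, DESeq2 called 175 of 200 changed and 10 unchanged genes of 22180, and limma called 169 of 182 changed and 6 unchanged genes of 13042. All simulated libraries started from the WT mean with the same spread and no LPS effect. Large changes were placed in genes above a minimum count. The recovery therefore does not cover small changes, genes with few counts or the wider spread of WTL and KOL. No replicate pair was identical, and chi-square values per degree of freedom lay between 1.66 and 77.7, above what counting alone gives. Same-numbered replicates did not deviate together (r from -0.286 to 0.112 between deviations from group means).

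Every member was reported. From the pathway list (71 symbols, 70 matched), up to 3 called genes with the largest rise and fall per comparison and a mean of at least 50 normalised counts were named, with the nearest tested genes to each member and the 5 genes most correlated with Aldh1a2. One gene that this rule names is not reported here. Members and lists were chosen with earlier results of these data known. Gene positions came from GENCODE M21 and promoters from RefSeq (GRCm38.p6). A total of 12769773 to 16586334 counts per library limits precision for genes with few counts. The limit given for Aldh1a1 covers counting error only, while SEs include the spread between replicates.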

Additional observations from a re-analysis of the deposited data

Results flagged for a closer look

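The LPS response of Rara differed between genotypes by 0.60 on the log2 scale (adjusted p = 0.013, edgeR's test of the difference itself): the LPS response was -0.24 in WT, which did not pass (adjusted p = 0.067), and 0.36 in KO (adjusted p = 0.0069). The LPS response of Rarg differed by -0.66 (adjusted p = 0.0033, edgeR), with -0.14 in WT, which did not pass (adjusted p = 0.19), and -0.80 in KO (adjusted p = 3.2e-06). Over all alternatives run, the Rara difference ranged from 0.50 to 0.71, with adjusted p from 0.0021 to 0.06, and the Rarg difference from -0.75 to -0.48, with adjusted p from 2.8e-04 to 0.077. The differences that missed the threshold were those of limma on TPM, for Rara with TPM scaled to a common median and for Rarg with unscaled TPM. Rara and Rarg were 2 of 9 tested members, beside 17.4% of all tested genes whose LPS response differed, so this count is close to the background.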

How the results depend on the processing

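Of 683 alternative values for the members, 624 kept their direction and side of the threshold, 23 no longer passed, 15 newly passed and 21 changed sign, 2 of these for a value that had passed (Rara in KOL against KO, -0.08 and -0.09 with limma on log2(TPM + 1) and log2(TPM + 0.1)). With the replicate block, all 45 member values kept their direction and side of the threshold (Aldh1a2 in KO against WT was 3.06). The labels do not say whether the replicate numbers pair the samples. Requiring 10 counts in every library left 7 members to test, 2 of which passed in KO against WT. With limma on log2(TPM + 1), log2(TPM + 0.1) and, where given, TPM scaled to a common median, the members that passed were 2, 1 and 2 in KO against WT, 2, 3 and 5 in KOL against WTL, 4 and 4 in KOL against KO, and 1, 1 and 1 in the difference of LPS responses, where fewer members were tested because Aldh1a3 or Cyp26b1 fell under the TPM minimum; the cause of the other losses was not tested. The pathway list gave 30 and 28 in WTL against WT (26 and 25 of them lower), and 9 in the difference of LPS responses with log2(TPM + 0.1). The fold cutoffs left 6 pathway genes in WTL against WT and 13 in KOL against KO, and 4 members in KOL against WTL and in KOL against KO. Values that had not passed and changed sign were Rdh10 in WTL against WT (-0.19 and -0.26) and KOL against KO (-0.06 and -0.12) with unscaled TPM, Rxrb in KO against WT (0.03, scaled TPM), and the difference of LPS responses for Rdh10 (0.13, 0.14 and, scaled, 0.05). Leaving out 1 library gave -0.12 to 0.01 for Rxra in KO against WT, and -0.17 to 0.38 for Aldh1a3 and -0.14 to 0.15 for Rdh10 in the difference of LPS responses. Depth limits Aldh1a3 and Cyp26b1 most, with 3 to 9 counts in WT.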
